A study of Mus musculus with 24 samples.

Results

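The genes described here make cholesterol and fatty acids or control that synthesis. They were taken from the table by symbol, as a list of 40 genes. A row was present for 39 of these 40, out of 11140 genes in the table, and all 39 were tested. Fads2 was not analysed here. The level exceeded 1 CPM in every library for 36 of the 39, and Me1, Acacb and Elovl6 were the others. The list held 18 enzymes of sterol synthesis, 5 regulators, 6 genes that make fatty acids, 7 desaturases and elongases, 2 genes of malonyl-CoA removal and fatty acid import into mitochondria (Mlycd and Cpt1a) and 2 cholesterol exporters (Abca1 and Abcg1).

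RNA was measured in B lymphoma cells that had been purified from spleen, in C57BL/6 mice. All mice carried a Bcl6 transgene, written Bcl6Tg/+. Bcl6 is a transcriptional repressor of germinal centre B cells. The T cell sufficient group had this genotype alone and held 12 libraries, 7 from run 1 and 5 from run 2. The T cell deficient group was Bcl6Tg/+CD3Epsilon-/-, a genotype that lacks the CD3 epsilon chain of the T cell receptor, and held 11 libraries, 5 from run 1 and 6 from run 2. The sources used here do not give the promoter of the transgene, the ages of the mice or whether animals were pooled. The labels do not say that the lymphomas of a group came from separate mice, so p-values measure the spread between these samples. The comparison asks how lymphomas that arose without T cells differ in these genes from those that arose with them.

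Cells make cholesterol from acetyl-CoA through mevalonate and squalene, and fatty acids from the same acetyl-CoA through malonyl-CoA. Transcription of both pathways is driven by the sterol regulatory element binding proteins, encoded by Srebf1 and Srebf2. Scap escorts these proteins to the Golgi for activation when sterols are low, and the Insig proteins hold them in the endoplasmic reticulum when sterols are plentiful. Dividing lymphocytes need both lipids for new membranes.

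The libraries held between 7.58 M and 30.6 M counts (M, mega). Levels are in CPM, counts scaled to 1 M counts of the library, and 3 counts were worth 0.102 to 0.406 CPM, a limit that covers counting error only. Cd3e averaged 0.965 CPM in sufficient and 2.47 CPM in deficient libraries (edgeR log2 fold change 1.07, adjusted p = 0.179, not passed). The sources used here do not give the deleted part of Cd3e, so its transcript does not check the genotype. T cell sufficient libraries 9, 10 and 11, all of run 2, held both Xist and Y-linked transcripts at 10 CPM or more. Without them, the calls over all genes went from 1163 higher and 1285 lower to 646 and 816. Xist alone reached this level in sufficient libraries 1, 3, 8 and 12 and in deficient libraries 2, 5 and 10. Y-linked transcripts alone did so in sufficient libraries 4, 5, 6 and 7 and in every other deficient library. Sufficient library 2 held neither at this level. Sex was not a term in the fit, and its part in the group differences was not tested. The B cell markers Cd79a and Ms4a1 were both present, and Cd79a was lower in deficient lymphomas (log2 fold change -0.58, edgeR adjusted p = 0.0195). Proliferation genes were higher in deficient lymphomas (18 of 22 passed, or 81.8%, beside 10.6% of all tested genes, median log2 fold change 0.60). Their summed level ran from 2133 to 5461 CPM in sufficient and from 5464 to 8853 CPM in deficient libraries. These ranges did not overlap but nearly touched, at 5461 and 5464 CPM. In bulk samples, fewer cells of a type and less RNA per cell cannot be told apart.

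Most lipid synthesis genes did not pass the test between the groups, and most of the few that did act on fatty acids. In deficient lymphomas 1 gene was higher (Fasn) and 5 were lower (Acacb, Scd1, Scd2, Tm7sf2 and Abcg1), while 33 did not pass edgeR's quasi-likelihood test at an adjusted p under 0.05. Called genes were 15.4% of the list, beside 22.2% of all 11020 genes tested. The higher share was 2.56% beside 10.6%, and the lower share 12.8% beside 11.7%, so the higher share lay under the background and the lower share close to it. The median log2 fold change was -0.14 over the list and -0.01 over all tested genes, and 30 of the 39 values were negative. In no gene of the list were the groups without overlap, which held for 0.163% of all tested genes (0.0907% with deficient higher and 0.0726% with deficient lower). With run 1 fitted alone 0 genes of the list passed, as did 0 of all 11064 genes tested, while 2 higher and 4 lower genes of the list had an unadjusted p under 0.05. With run 2 fitted alone 0 of the list were higher, beside 5.69% of 11051 genes tested, and 2 were lower (Acacb and Abcg1), beside 6.61%. Of the 39 genes, 5 (12.8%) passed the same threshold in the authors' deposited table, beside 22.8% of its 11140 genes. These were Fasn, Acacb, Scd2, Tm7sf2 and Abcg1, and Scd1 had an adjusted p of 0.104 in the authors' deposited table.

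**Figure D1:**
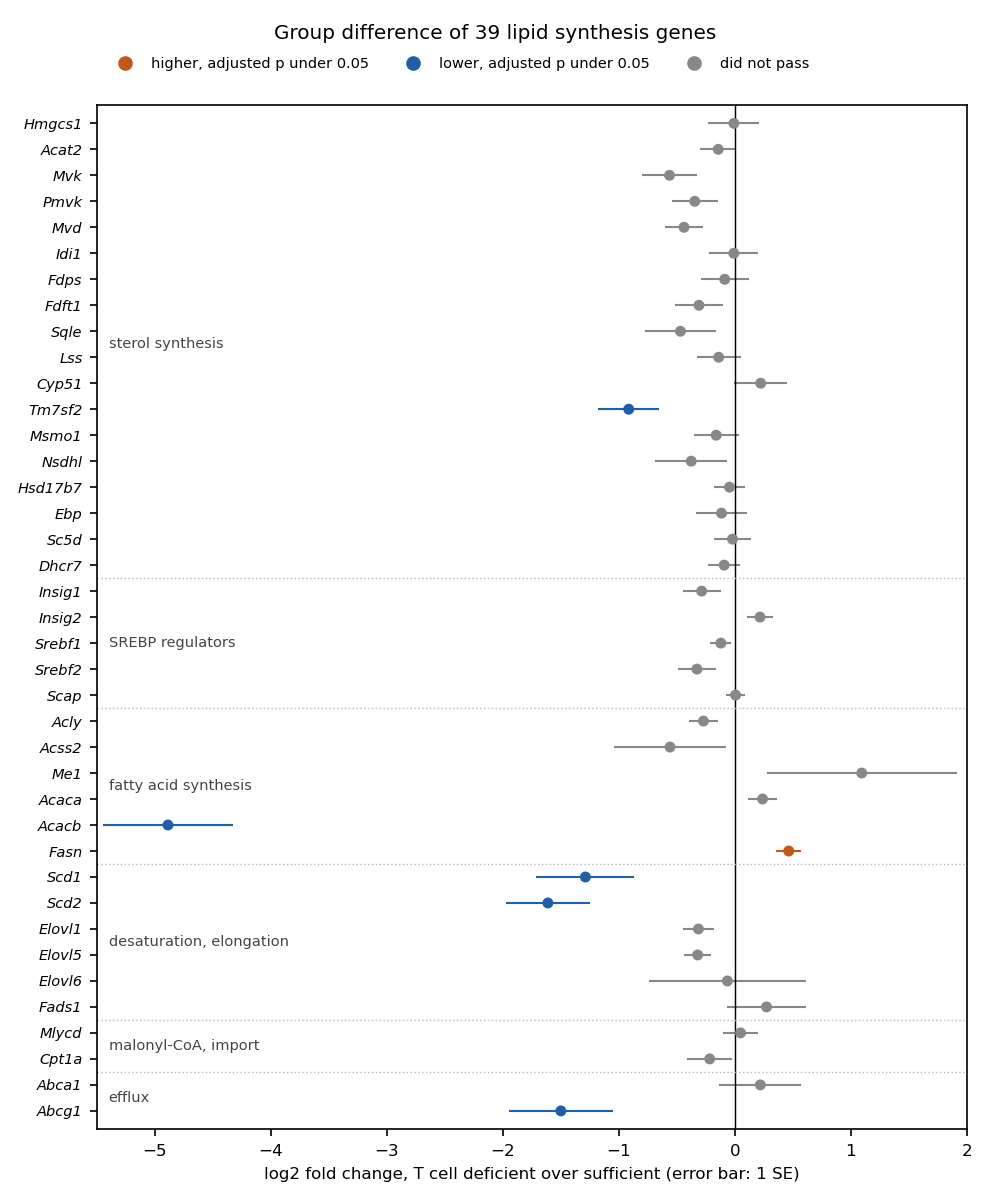
Log2 fold change of T cell deficient over T cell sufficient lymphomas for the 39 genes, on the x axis, with genes in rows by role and bars of 1 SE. Acacb lies at -4.89, Scd1, Scd2 and Abcg1 lie between -1.61 and -1.29, Fasn is the one called gene above 0, and most sterol synthesis genes lie close to 0.

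The promoters of 4 genes are printed first, because they hold the motif most common in the list and cover genes that were higher, lower or not called. Each is 300 bases from RefSeq on GRCm38.p6, 5′ to 3′ on the gene's strand, from 250 bases before the start site to 50 after it. Capitals mark CCAAT or its reverse complement ATTGG, the box bound by the factor NF-Y, and, in Hmgcs1 only, the short sterol regulatory element TCACNCCAC.

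Hmgcs1 promoter, chr13:119690101-119690400, plus strand: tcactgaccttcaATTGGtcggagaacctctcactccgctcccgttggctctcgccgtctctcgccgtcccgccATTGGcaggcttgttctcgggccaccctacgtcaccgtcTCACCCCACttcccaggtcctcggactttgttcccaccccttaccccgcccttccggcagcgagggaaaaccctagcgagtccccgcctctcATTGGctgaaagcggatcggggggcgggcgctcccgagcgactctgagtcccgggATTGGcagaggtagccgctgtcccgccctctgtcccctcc
Fasn promoter, chr11:120824498-120824797, minus strand: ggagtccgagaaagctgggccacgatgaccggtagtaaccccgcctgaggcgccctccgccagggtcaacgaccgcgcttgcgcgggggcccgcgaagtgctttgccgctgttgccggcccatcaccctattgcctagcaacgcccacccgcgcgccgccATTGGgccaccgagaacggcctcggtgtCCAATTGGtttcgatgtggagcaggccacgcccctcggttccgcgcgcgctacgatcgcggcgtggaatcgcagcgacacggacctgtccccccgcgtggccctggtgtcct
Acacb promoter, chr5:114165268-114165567, plus strand: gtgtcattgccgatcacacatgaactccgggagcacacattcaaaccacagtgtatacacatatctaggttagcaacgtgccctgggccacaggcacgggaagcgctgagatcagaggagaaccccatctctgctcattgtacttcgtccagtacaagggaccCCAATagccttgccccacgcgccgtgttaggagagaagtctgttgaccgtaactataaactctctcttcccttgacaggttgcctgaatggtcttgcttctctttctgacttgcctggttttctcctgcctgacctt
Tm7sf2 promoter, chr19:6067801-6068100, minus strand: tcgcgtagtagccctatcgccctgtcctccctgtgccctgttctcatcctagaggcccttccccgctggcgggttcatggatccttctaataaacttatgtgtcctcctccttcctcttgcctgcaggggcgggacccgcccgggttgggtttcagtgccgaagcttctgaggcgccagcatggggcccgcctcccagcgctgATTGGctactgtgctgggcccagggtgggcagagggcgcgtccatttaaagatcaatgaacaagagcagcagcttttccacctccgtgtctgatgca

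Hmgcs1 makes HMG-CoA at the head of the mevalonate pathway and did not pass the test between the groups, Fasn was higher, and Acacb and Tm7sf2 were lower. The Acacb and Tm7sf2 windows lie inside the annotated spans of their genes, each at a start site downstream of the first one. A promoter entry was matched for 32 of the 39 genes (42 entries), and a gene was counted when any of its entries held the motif on either strand. No entry was matched for Fdps, Fdft1, Sqle, Scd1, Scd2, Fads1 and Abcg1. CCAAT was found in 27 of the 32 genes (84.4%), beside 43.3% of 8466 tested genes with an entry and 41.1% of all 27025 genes with one. In sterol synthesis genes it was found in 14 of 15 (93.3%). The classical sterol regulatory element was in 0 of 32, beside 0.0354% of tested genes. The shorter form TCACNCCAC, which lies within it, was in 1 of 32, Hmgcs1, at position -137, beside 1.35% of tested genes. The E-box CACGTG was in 7 of 32 (21.9%), beside 12.2% of tested genes. A match is a run of letters in a short window and was not tied to binding in these cells.

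The regulators did not pass the test. Srebf2, which encodes the factor that mainly drives cholesterol genes, was measured at 516, 851 and 1312 CPM (lowest, median and highest) in sufficient lymphomas and at 487, 700 and 916 CPM in deficient lymphomas. The ranges overlapped, with 6 of 12 sufficient libraries above every deficient one and 2 of 11 deficient libraries below all sufficient libraries (log2 fold change -0.33 ± 0.16 SE, edgeR adjusted p = 0.152). Srebf2 was among the most abundant genes of the list per length of annotated exons, at 119 and 95.3 CPM per kilobase. Srebf1, which encodes the factor that mainly drives fatty acid genes, was measured at 103, 123 and 147 CPM in sufficient and at 87.5, 117 and 155 CPM in deficient lymphomas (log2 fold change -0.12 ± 0.09 SE, edgeR adjusted p = 0.346). The deficient range spanned the sufficient one. Insig1, itself a sterol-responsive gene, was measured at 36.1, 51.6 and 90.1 CPM in sufficient and at 32.9, 47.2 and 58.3 CPM in deficient lymphomas (log2 fold change -0.29 ± 0.16 SE, edgeR adjusted p = 0.217). The 4 highest levels, from 79.1 CPM up, were in sufficient lymphomas 1, 2, 3 and 11. Insig2 (0.22 ± 0.11) and Scap (0.01 ± 0.08) did not pass either.

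Of the 18 sterol synthesis enzymes, 1 was lower (5.56%, beside 11.7% of all tested genes) and 0 were higher (beside 10.6%). Log2 fold changes were negative in 17 of 18, beside 5603 of 11020 tested genes. Some of the 17 were close to 0, such as Hmgcs1 and Idi1 at -0.01 and Sc5d at -0.02. The median over the 18 was -0.14. This median was -0.28 within run 1 and -0.01 within run 2. Their summed level ran from 470 to 1528 CPM in sufficient and from 587 to 1223 CPM in deficient lymphomas, so the deficient range lay inside the sufficient one.

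Tm7sf2, a sterol reductase that acts after lanosterol, was the enzyme that was lower. The gene lies on chromosome 19 at 6062821 to 6068373 (GRCm38, GENCODE M21, minus strand). Its levels were 4.01, 13.2 and 17.9 CPM in sufficient lymphomas and 2.77, 6.11 and 18.2 CPM in deficient lymphomas (means 12.8 ± 4.17, SD, n = 12, and 7.41 ± 4.23, SD, n = 11). The sufficient range lay inside the deficient one, since sufficient library 5 was low and deficient library 6 was the highest of all 23. The fall was 1.89-fold (log2 fold change -0.91 ± 0.26 SE, edgeR adjusted p = 0.0169). Without deficient library 6 it was -1.06 (adjusted p = 0.00373), and without a term for run it lost the call (-0.78, adjusted p = 0.0516). Within single runs it was -1.29 in run 1 and -0.51 in run 2 (adjusted p = 0.142 and 0.322).

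Sqle, which epoxidises squalene and is a rate-limiting step of the pathway, was measured at 29.3, 90.4 and 202 CPM in sufficient and at 24.9, 66.6 and 113 CPM in deficient lymphomas. The 4 highest libraries, from 134 CPM up, were sufficient lymphomas 1, 2, 3 and 11, but the lowest sufficient libraries lay close to the lowest deficient one (log2 fold change -0.47 ± 0.31 SE, edgeR adjusted p = 0.280). Mvk and Mvd, which phosphorylate mevalonate and decarboxylate its product, had log2 fold changes of -0.56 and -0.44 and did not pass (adjusted p = 0.0891 and 0.0632). Mvd did pass in DESeq2. The other sterol enzymes lay between -0.38 (Nsdhl) and 0.22 (Cyp51). Cyp51, the lanosterol demethylase, was the most abundant of them per length, at 44.1 and 50.3 CPM per kilobase in sufficient and deficient lymphomas. Hmgcs1 averaged 117 CPM in both groups.

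**Figure D2:**
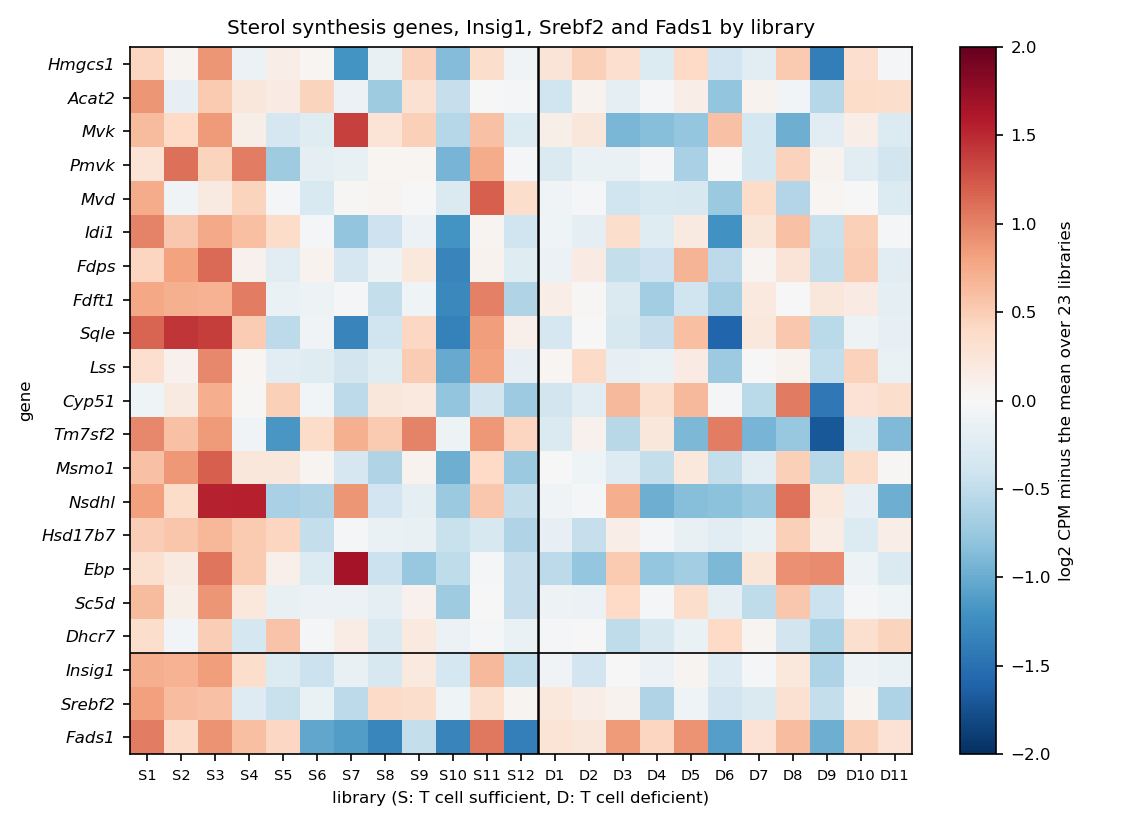
Level of the 18 sterol synthesis genes, Insig1, Srebf2 and Fads1 (rows) in each of the 23 libraries (columns), as log2 CPM minus the gene's mean over libraries. Sufficient library 3 is high and sufficient library 10 low in most rows, and libraries of both groups hold high and low values.

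The levels of many sterol genes varied together from library to library within the groups. Correlations were taken over 23 libraries after the mean of each group and run was removed. Over the 153 pairs of sterol synthesis genes the median r was 0.34, and 82.4% of pairs were positive, beside a median of 0.00 and 50.02% over all 60714690 pairs of tested genes. Libraries share depth and composition, so these are descriptions. Lss, which closes the sterol ring, followed the mean of the other sterol genes most closely (r = 0.90), followed by Msmo1 (0.88) and Sc5d (0.83). Among the other genes of the list, Insig1 (0.86), Fads1 (0.78) and Srebf2 (0.75) followed it closely. Of the sterol enzymes, Dhcr7 (0.07), Ebp (0.09), Mvk (0.21) and Tm7sf2 (0.35) followed the mean of the others least. Fasn (0.23), Scd1 (-0.32) and Abcg1 (-0.30) did not follow the sterol genes closely either.

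Relations between 9 pairs of genes were tested over the same 23 libraries by permutation within group and run (100000 draws, two-sided, adjusted over the 9). Srebf2 was correlated with Hmgcs1 (Pearson r = 0.69, Spearman rho = 0.68, permutation p = 0.00031 and 0.00076, adjusted 0.0014 and 0.00342). Without the 2 libraries farthest from the median of Srebf2, r was 0.63. Srebf2 was also correlated with Sqle (r = 0.73, rho = 0.71, permutation p = 0.00051 and 0.00154, adjusted 0.00153 and 0.00462), and r was 0.67 without the 2 farthest. Hmgcs1 and Sqle gave r = 0.76 and rho = 0.71 (permutation p = 2e-05 and 0.00039, adjusted 0.00018 and 0.00342), with r = 0.72 without the 2 farthest libraries and 0.70 and 0.89 within the runs. Within run 1 and run 2, r of Srebf2 was 0.66 and 0.77 with Hmgcs1 and 0.86 and 0.51 with Sqle.

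Srebf1 showed no such relation with Fasn (r = -0.07, rho = 0.00, permutation p = 0.781 and 0.984, adjusted 0.879 and 0.984). It was correlated with Scd2 (r = 0.63, rho = 0.60, permutation p = 0.00442 and 0.00646, adjusted 0.00995 and 0.0145), with r = 0.53 in run 1 and 0.77 in run 2. Without the 2 farthest libraries r was 0.46, and it was 0.24 over sufficient and 0.88 over deficient lymphomas. The difference between these was not tested.

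**Figure D3:**
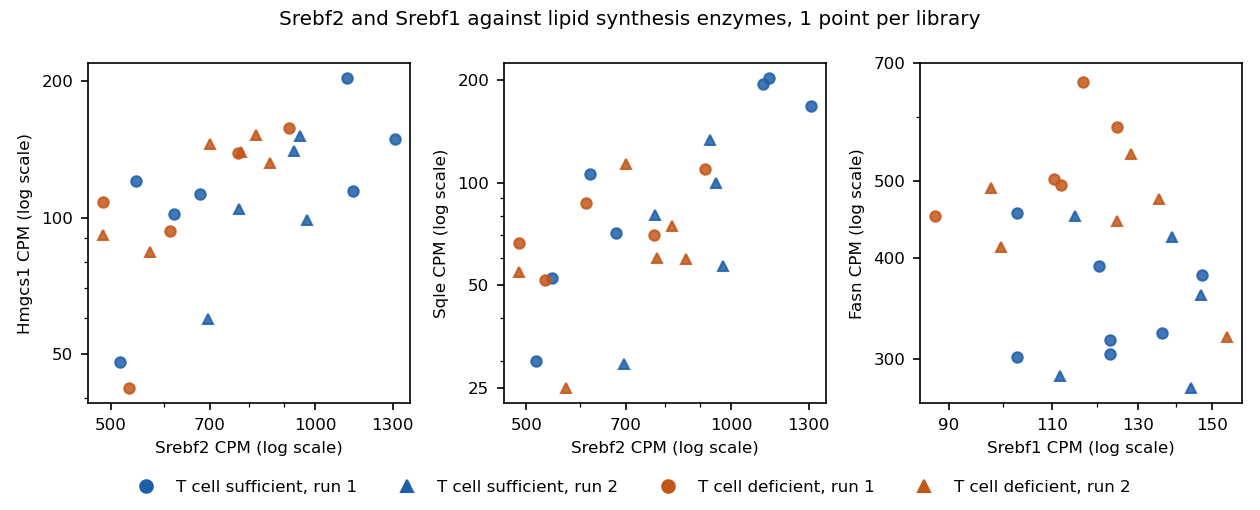
Level of Srebf2 or Srebf1 (x axis, CPM, log scale) against lipid synthesis enzymes (y axis, CPM, log scale), 1 point per library, coloured by group, with circles for run 1 and triangles for run 2. The Srebf2 panels with Hmgcs1 and Sqle slope upward in both groups, and the Srebf1 panel with Fasn does not.

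Of the 6 genes that make fatty acids, 1 was higher and 1 lower. Acacb, the acetyl-CoA carboxylase of the outer mitochondrial membrane, whose malonyl-CoA restrains fatty acid import into mitochondria, had the largest log2 fold change of the list. It lies on chromosome 5 at 114146535 to 114250761 (plus strand). Sufficient lymphomas held 0.869, 26.0 and 110 CPM and deficient lymphomas 0.546, 0.804 and 1.69 CPM (means 28.7 ± 29.2, SD, n = 12, and 0.924 ± 0.404, SD, n = 11). Of the 12 sufficient libraries 11 were above every deficient library, and sufficient library 5 lay inside the deficient range at 0.869 CPM. The fall was 29.6-fold (log2 fold change -4.89 ± 0.56 SE, edgeR adjusted p = 4.68e-05). Without sufficient library 5 it was -5.02 (adjusted p = 2.93e-06). Within run 1 it was -4.21 (adjusted p = 0.0746) and within run 2 -5.60 (adjusted p = 0.00151). Markers of other cell types were counted beside it. Of 8 stromal markers listed, 4 had a row and were tested, and 1 was lower (25%, beside 11.7% of all tested genes). Pecam1, Sparc and Cdh5 did not pass (log2 fold changes -0.53, -1.29 and 0.24). The lower one was the collagen gene Col1a1 (log2 fold change -4.96 ± 0.67 SE, edgeR adjusted p = 0.000151), at 0.372, 6.52 and 27.6 CPM in sufficient and at 0, 0.179 and 0.620 CPM in deficient lymphomas. For Col1a1, too, 11 of 12 sufficient libraries were above every deficient one. The 4 stromal markers together ran from 30.6 to 263 CPM in sufficient and from 27.1 to 163 CPM in deficient lymphomas. Of 20 macrophage markers 3 were lower (15%, beside 11.7% of all tested genes). The part of these stromal and macrophage markers in the fall of Acacb was not tested. Among sufficient lymphomas the level itself ranged widely, from 4.47 to 110 CPM outside library 5.

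Acaca, the cytosolic carboxylase that supplies malonyl-CoA for synthesis, did not follow Acacb. It averaged 37.2 CPM in sufficient and 43.8 CPM in deficient lymphomas (log2 fold change 0.24 ± 0.13 SE, edgeR adjusted p = 0.180). Per length, Acacb stood at 2.98 CPM per kilobase in sufficient lymphomas, beside 2.18 for Acaca, and at 0.0960 in deficient lymphomas, beside 2.56.

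Fasn, the synthase that builds palmitate, was the gene that was higher. It lies on chromosome 11 at 120805846 to 120824547 (minus strand). Its levels were 276, 342 and 456 CPM in sufficient and 320, 489 and 663 CPM in deficient lymphomas (means 356 ± 64.2, SD, n = 12, and 489 ± 89.1, SD, n = 11). Of the 11 deficient libraries 7 were above every sufficient library, and 5 sufficient libraries were below every deficient one. The rise was 1.38-fold (log2 fold change 0.47 ± 0.11 SE, edgeR adjusted p = 0.00536). Taken by run it was 0.60 in run 1 and 0.32 in run 2 alone, where it did not pass (adjusted p = 0.0993 and 0.223). The proliferation genes, whose values are given above, were higher in the same lymphomas, and their part in this result was not tested. Acly, which makes acetyl-CoA from citrate, was abundant (95.1 and 77.0 CPM per kilobase) and did not pass (log2 fold change -0.27, adjusted p = 0.116). Acss2 did not pass (-0.56, adjusted p = 0.419). Me1 was low, at means of 0.942 and 1.79 CPM, and did not pass either (log2 fold change 1.09 ± 0.82 SE, edgeR adjusted p = 0.3465).

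**Figure D4:**
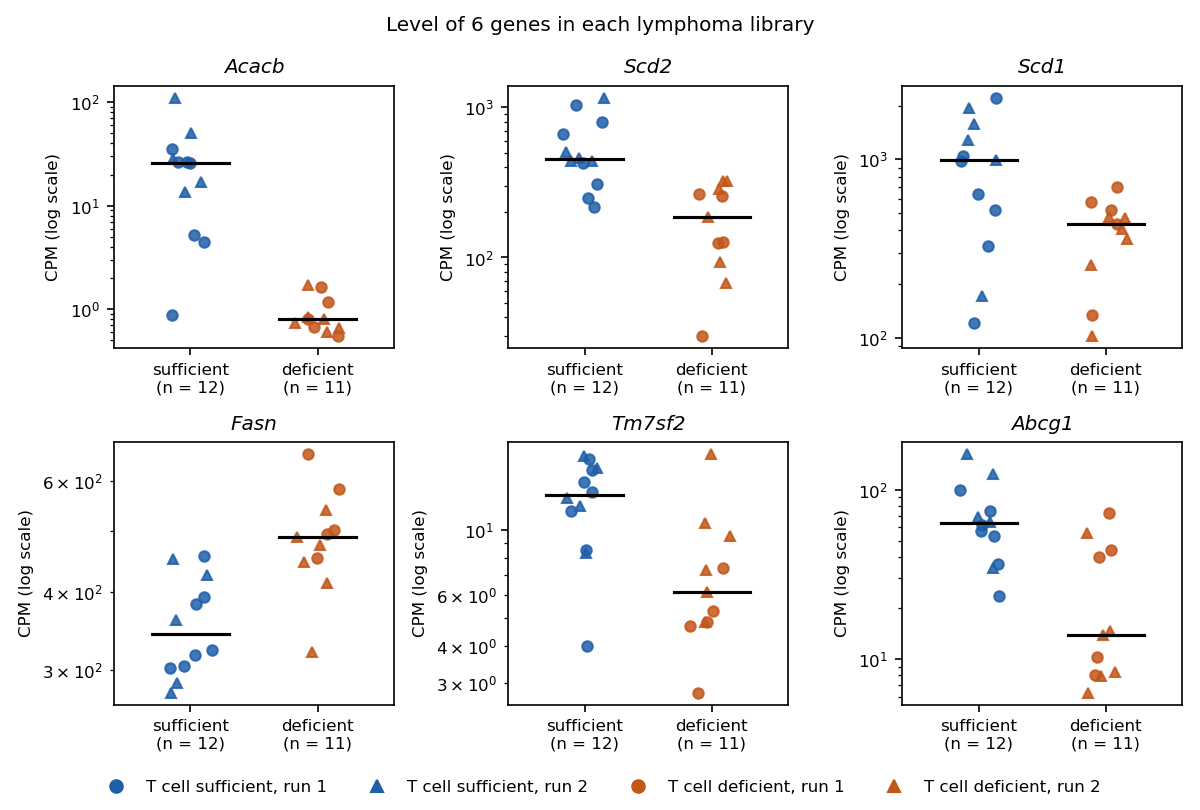
CPM in each library (y axis, log scale) of the 6 genes called between the groups (x axis), with circles for run 1, triangles for run 2 and a bar at each group's median. Acacb separates the groups except for 1 sufficient library, while the other genes overlap.

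Of the 6 desaturases and elongases tested, 2 were lower and 0 higher. Both stearoyl-CoA desaturases, which make monounsaturated fatty acids, were lower in deficient lymphomas. Scd2 lies at 44293674 to 44306864 (plus strand) and Scd1 at 44394455 to 44407879 (minus strand) on chromosome 19. They are similar genes, and without a stated counting tool reads they share cannot be assigned with certainty. Scd2 was measured at 215, 451 and 1157 CPM in sufficient and at 29.8, 185 and 326 CPM in deficient lymphomas (means 559 ± 301, SD, n = 12, and 189 ± 107, SD, n = 11). In 9 sufficient libraries it was above every deficient one, and in 6 deficient libraries it was below every sufficient one. The fall was 3.06-fold (log2 fold change -1.61 ± 0.37 SE, edgeR adjusted p = 0.00417), with -1.72 in run 1 and -1.48 in run 2 alone (adjusted p = 0.176 and 0.0517).

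Scd1 was measured at 122, 988 and 2212 CPM in sufficient and at 102, 435 and 703 CPM in deficient lymphomas (means 986 ± 679, SD, n = 12, and 403 ± 182, SD, n = 11). In 7 sufficient libraries it was above every deficient library, while sufficient libraries 4 and 11 were low, at 122 and 171 CPM. The fall was 2.44-fold (log2 fold change -1.29 ± 0.42 SE, edgeR adjusted p = 0.0331). This call was lost with limma-voom (-1.05, adjusted p = 0.104) and without any one of sufficient libraries 1, 8, 10 and 12 or deficient library 5 (adjusted p from 0.0512 to 0.0705). Within run 1 it was -0.82 and within run 2 -1.79 (adjusted p = 0.510 and 0.0501). Scd1 and Scd2 did not always go together: sufficient library 11 had the highest Scd2 of all and a low Scd1. Over the 23 libraries their r was 0.36 (rho = 0.35, permutation p = 0.0936 and 0.115, adjusted 0.168 and 0.172), and this relation was added after the data were seen. Without sufficient libraries 4 and 11, the 2 farthest in Scd1, r was 0.69, and it was 0.70 in run 1 and -0.14 in run 2. Acacb with Scd1, also added later, gave r = 0.30 and rho = 0.54 (permutation p = 0.270 and 0.0302, adjusted 0.405 and 0.0543), and r was 0.50 over sufficient and -0.75 over deficient lymphomas, a difference that was not tested. Without the 2 libraries farthest in Acacb r was 0.35, and it was 0.27 in run 1 and 0.38 in run 2. Acacb with Scd2, added with it, gave r = 0.01 and rho = -0.01 (permutation p = 0.951 and 0.956, adjusted 0.951 and 0.984). For this pair r was 0.29 over sufficient and -0.65 over deficient lymphomas, a difference also not tested. Acacb rests on 8 to 36 counts a library in deficient lymphomas, so counting error enters both values there. Scd1 was the most abundant gene of the list per length in sufficient lymphomas, at 202 CPM per kilobase, and stood at 82.4 in deficient lymphomas.

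The elongases and Fads1, which inserts a double bond in polyunsaturated fatty acids, did not pass. Elovl5 came closest (log2 fold change -0.32 ± 0.12 SE, edgeR adjusted p = 0.0535) and passed in DESeq2. Elovl6 varied widely within groups, from 0.163 to 47.8 CPM in sufficient lymphomas. Mlycd, which removes malonyl-CoA, and Cpt1a, which imports fatty acids into mitochondria, had log2 fold changes of 0.05 and -0.22 and did not pass.

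Of the 2 cholesterol exporters, which pump cholesterol out of the cell, Abcg1 was lower and Abca1 did not pass. Abcg1 lies on chromosome 17 at 31057675 to 31117988 (plus strand). It was measured at 23.6, 63.0 and 162 CPM in sufficient and at 6.33, 13.9 and 72.4 CPM in deficient lymphomas (means 71.6 ± 39.6, SD, n = 12, and 25.6 ± 23.3, SD, n = 11). The groups overlapped, with 4 deficient libraries at 39.8 to 72.4 CPM and the other 7 at 14.7 CPM or less. The fall was 2.83-fold (log2 fold change -1.50 ± 0.45 SE, edgeR adjusted p = 0.0204). Within run 1 it was -0.75 (adjusted p = 0.491) and -2.34 within run 2 (adjusted p = 0.0330), and without the 3 libraries with Xist and Y-linked transcripts it lost the call (-1.15, adjusted p = 0.0917). Macrophage markers were counted beside it. Of 20, 3 were lower (Lyz2, Itgam and Mpeg1), or 15%, beside 11.7% of all tested genes. All 20 had negative log2 fold changes, and their median was -0.07 in run 1 and -1.85 in run 2. Cd163 was at 0 in at least 1 sufficient library, and no other marker of the list was at 0 in any. The summed level of the macrophage markers was 622 to 4727 CPM in sufficient and 392 to 1348 CPM in deficient lymphomas. The 4727 CPM was sufficient library 11, which also had the highest Abcg1 and held both Xist and Y-linked transcripts. The next highest was sufficient library 5, at 1700 CPM. The part of these markers in the result was not tested. Abca1 was measured at 22.2, 74.0 and 200.4 CPM in sufficient and at 13.1, 96.0 and 245 CPM in deficient lymphomas. It did not pass (log2 fold change 0.22 ± 0.35 SE, edgeR adjusted p = 0.681), and no relation with Abcg1 passed across libraries (r = -0.11, rho = -0.12, permutation p = 0.685 and 0.642, adjusted 0.879 and 0.825).

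Between the runs, with group as a term, 7 of the 39 genes differed, beside 36.3% of all tested genes. Abca1 was higher in run 2 (log2 difference 1.05), and Acly, Ebp, Elovl1, Elovl5, Hsd17b7 and Idi1 were lower, with Ebp at -0.97. With column totals as the scaling 4 genes differed. In edgeR's test of whether the group difference differed between runs, 0 of 39 genes passed at an adjusted p under 0.05, 0 had an unadjusted p under 0.05, and 0 of all tested genes passed (723 at an unadjusted p under 0.05).

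Genes around the pathway were counted the same way. Of 23 tested genes of cholesterol uptake, transport, storage and sterol regulation, 7 were lower (30.4%, beside 11.7% of all tested genes) and 0 higher (beside 10.6%). These included Npc1, which exports cholesterol from lysosomes (log2 fold change -0.76, edgeR adjusted p = 0.000208), and Soat1, which esterifies it for storage (-0.79, adjusted p = 0.00204). Rnf139, a ubiquitin ligase of the endoplasmic reticulum, and Lipa, the lysosomal lipase, had log2 fold changes of -0.48 and -0.75 and were lower too (adjusted p = 0.0097 and 0.0189). The remaining 3, Npc2, Nr1h3 and Mylip, which were named after their values were seen, had log2 fold changes from -1.45 to -0.71. Of the 20 macrophage markers given above 3 were lower in the same lymphomas (15%, beside the same 11.7%), and their part in these counts was not tested. Of 14 genes of the isoprenoid branch 0 passed in edgeR, with 1 higher and 3 lower at an unadjusted p under 0.05, 0 in DESeq2 and 1 lower in limma-voom.

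Of 26 other genes of fatty acid synthesis and activation, 4 were higher (15.4%, beside 10.6% of all tested genes) and 2 lower (7.69%, beside 11.7%), shares near the background. Aacs, which makes acetoacetyl-CoA for lipid synthesis, rose (0.68, edgeR adjusted p = 0.0023), as did the elongase Elovl7 (3.38, adjusted p = 0.00686) and Hsd17b12 of the elongation cycle (0.51, adjusted p = 0.00842). Dgat1, which makes triglycerides, fell (-0.54, adjusted p = 0.0048). Of 18 fatty acid oxidation genes 1 was higher (5.56%) and 2 were lower (11.1%), at or under the same background shares. Crat, carnitine acetyltransferase, was lower (-1.86, adjusted p = 0.000269), Cpt2 was higher (0.29, adjusted p = 0.0206), and Eci1 was lower (-0.46, adjusted p = 0.0448).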

How the data were processed

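RNA of purified B lymphoma cells was made into TruSeq libraries after column extraction, per the labels' protocols. The authors deposited raw counts for 23 libraries, CPM (which equal count over column total), and a comparison of their own with log2 fold changes, log2 mean levels and p-values. The submitters' processing notes name limma and the builds GRCm38 and mm10. The sources used here give no aligner, counting tool or strand setting. Each listed gene exceeds 1 CPM in at least 7 libraries. A repeat library of sufficient lymphoma 1 was not analysed here. The column of sufficient lymphoma 4 differs from its label in the suffix and was matched by its number, and the column of sufficient lymphoma 1, the deepest, may hold 1 or 2 libraries.

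Counts were tested with edgeR 4.0.16 (R 4.3.3): filterByExpr (11020 genes kept), TMM scaling, and the robust quasi-likelihood test with terms for run and group, Benjamini-Hochberg adjusted over all tested genes. CPM in the text are TMM-scaled, and log2 CPM use a prior count of 2. CPM per kilobase use the joined length of all exons of a gene in GENCODE M21, so comparisons per length depend on the annotation. The quasi-likelihood test gives no SE, so SE here is the absolute log2 fold change divided by the square root of the test's F statistic. Genes were chosen with earlier results of these data known, as were the lists. Values by library are given for every called gene and for Srebf1, Srebf2, Insig1, Sqle, Fasn, Abca1 and Abcg1, and up to 4 called genes of each other list are named. The list of cholesterol uptake, transport, storage and sterol regulation is an exception, with all 7 called genes named. Some genes of these lists are not reported here. No libraries were duplicates (121 pairs, lowest chi-square per degree of freedom 31.3). The code was tested on simulated data. DESeq2 1.42.0, limma-voom (limma 3.58.1), other scalings, thresholds and filters, single runs, a depth covariate, a block for the replicate number and fits without single libraries were tried as alternatives.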

Additional observations from a re-analysis of the deposited data

How the results depend on the processing

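Counts of called genes changed with the run used and the threshold. The 1 higher gene was 0 in run 1 alone and 0 in run 2 alone. The 5 lower genes were 0 in run 1 alone, where 0 of all 11064 tested genes passed, and 2 in run 2 alone (Abcg1 and Acacb). At an unadjusted p under 0.05, run 1 alone gave 2 higher and 4 lower, and run 2 alone 1 and 6. At an adjusted p under 0.01 the lower genes were 2 (Acacb and Scd2), and under 0.1 they were 8. With column totals without a scaling factor, 4 genes differed between runs instead of 7. Leaving out each library in turn, the higher count was 1 to 1 and the lower count 4 to 7. The causes of these shifts were not tested. None of the 6 called genes reversed its direction under the alternatives tried. Replicate numbers did not pair the libraries: over 11 same-numbered pairs the correlation of deviations ran from -0.25 to 0.23, with 4 above 0.1. With the replicate number as a block, 1 gene was higher and 5 were lower, but Scd1 was not called (-0.96, edgeR adjusted p = 0.265) and Elovl1 was. Me1 ran from 0 to 134 counts a library, and Acacb in deficient lymphomas rests on 8 to 36 counts a library.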
